A study of Homo sapiens with 12 samples.

Results

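Amino acid transporter genes were taken as the protein-coding genes of GENCODE release 44 whose symbols belong to the solute carrier families SLC1, SLC3, SLC6, SLC7, SLC36, SLC38 and SLC43. This symbol rule gave 59 genes of 20046 protein-coding genes, and no binding value entered it. All clusters with their midpoint inside a member gene and on its strand were collected from the 12 libraries and sorted by transcript region, precipitated protein and library. The members held 541 clusters of the 102250 in the 12 libraries.

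Amino acids do not pass the plasma membrane unaided, and solute carriers move them by facilitated exchange, sodium-coupled uptake or proton-coupled transport. SLC1A5, SLC38A1 and SLC38A2 bring in glutamine and small neutral amino acids, SLC7A5 exchanges glutamine for leucine, and SLC7A11 exchanges glutamate for cystine. SLC7A5 and SLC7A11 reach the membrane as heterodimers with the heavy chain SLC3A2, while SLC7A1 and SLC7A2 carry cationic amino acids such as arginine. The SLC6 family also holds carriers of creatine, taurine and neurotransmitters, so not every member takes an amino acid as its main substrate.

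The libraries were PAR-CLIP of wildtype HepG2, a human liver cancer cell line, in which RNA carried 4-thiouridine, was crosslinked to protein by ultraviolet light and was trimmed with RNase T1 before precipitation with an antibody. A cluster is a group of overlapping reads with crosslink-induced conversions, called in 1 library. IGF2BP1 and IGF2BP2 had 2 libraries each and IGF2BP3 had 4, of which 2 carried the label bio2, giving 8 libraries of this RNA-binding family, which the study tested for reading internal m7G in mRNA. METTL1 and WDR4, the subunits of the methyltransferase complex that writes m7G, had 2 libraries each, giving 4. All 12 libraries shared the cell line, the genotype and the labelling, and HepG2 is a single line, so differences between hepatocytes of different origin are not covered.

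A library held between 4581 and 15701 clusters, and its own total was used as the scale of each value. Clusters were shortest in the bio2 libraries, with medians of 34 nt and 35 nt, against 38 nt to 43 nt elsewhere. Exonic clusters were found for 12 of 13 hepatocyte markers and 3 of 3 hepatoblast and liver cancer markers. The exception was TTR. None of 9 blood, endothelial, stellate and fibroblast markers had one in any library. There was no input or mock library, and RNA levels were not used here, so strong binding and an abundant transcript cannot be told apart. The files list called clusters only, without reads, so the depth behind a cluster was unknown and a count of 0 sets no limit on binding.

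Exonic clusters, that is clusters in coding sequence or untranslated regions, were found in 26 of the 59 transporter genes (44.1%), against 29.4% of all protein-coding genes and 35.1% of the 313 other SLC genes. They were found in at least 6 libraries for 14 transporter genes (23.7%), against 10.6% of all genes and 13.4% of the other SLC genes. These 14 genes held 379 of the 415 exonic clusters (91.3%). They were picked by their number of libraries, which favours a high share, and the matching share over all genes was not computed. Only SLC1A5 had an exonic cluster in all 12 libraries. A further 9 genes had exonic clusters in 1 or 2 libraries, SLC7A7 and SLC38A11 had intronic clusters alone, and 31 had no cluster on their strand. Among the 31 was SLC38A4, a sodium-coupled transporter of neutral amino acids in hepatocytes.

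All 7 families had members with exonic clusters, and differences between families were not tested. Exonic clusters were found for 7 of 11 SLC38 genes with 109 clusters, 5 of 13 SLC7 genes with 120, 7 of 19 SLC6 genes with 87 and 3 of 7 SLC1 genes with 82. The smaller families had few, with 8 clusters in 1 of 2 SLC3 genes, 8 in 2 of 4 SLC36 genes and 1 in 1 of 3 SLC43 genes.

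**Figure D1:**
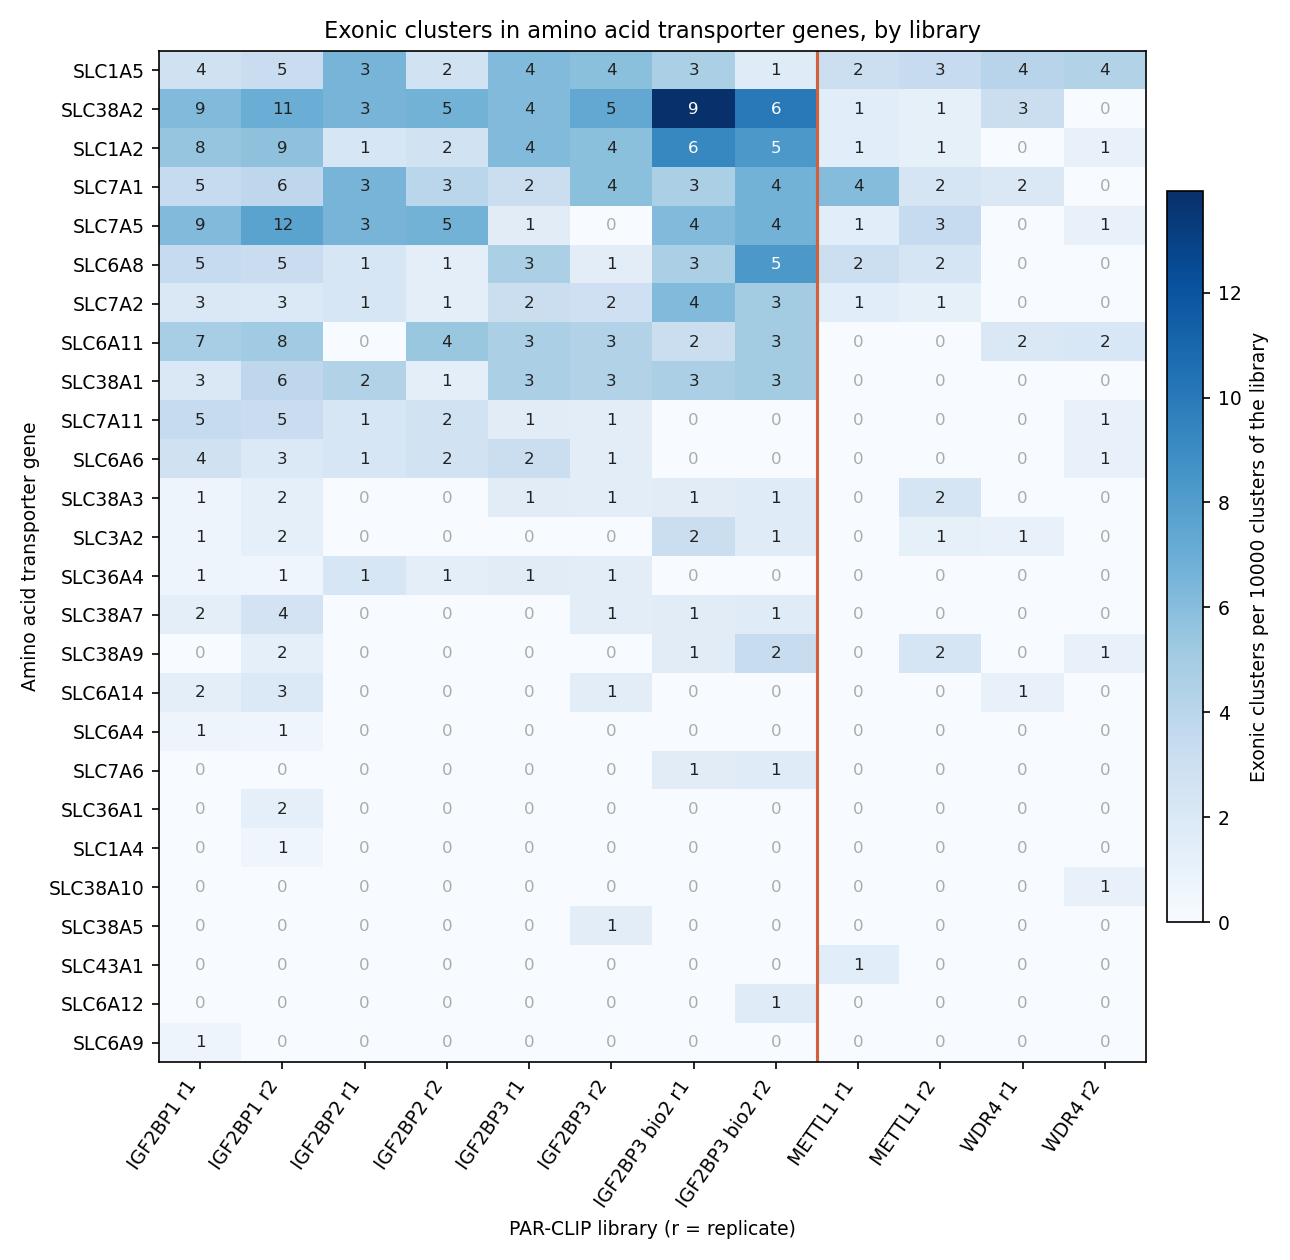
Exonic clusters in the 26 transporter genes that had any (rows) in each of the 12 libraries (columns), with the number of clusters printed and the colour giving clusters per 10000 clusters of the library. The orange line separates the 8 IGF2BP libraries on the left from the 4 METTL1 and WDR4 libraries on the right. SLC1A5 in the top row is filled on both sides, whereas SLC38A1 is filled in all 8 IGF2BP libraries and at 0 in the other 4.

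Transporter genes took a larger part of the IGF2BP libraries than of the METTL1 and WDR4 libraries. The members held 0.646% ± 0.0696 (SD, n = 8) of the clusters of an IGF2BP library, with a range of 0.522% to 0.732%. They held 0.292% ± 0.0368 (SD, n = 4) of the clusters of a METTL1 or WDR4 library, with a range of 0.272% to 0.347%, so the groups did not overlap. All protein-coding genes together held 79.3% and 69.1% of the respective libraries, and the 313 other SLC genes held 1.16% and 0.956%. These shares are given as a description, without a test over the list.

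The clusters of transporter genes lay mostly in 3' UTRs. In the IGF2BP libraries 65.4% ± 5.16 (SD, n = 8) of member clusters lay in 3' UTRs, 14.6% ± 11.4 in coding sequence and 19.3% ± 8.54 in introns. In the METTL1 and WDR4 libraries the respective shares were 43.1% ± 2.10 (SD, n = 4), 10.8% ± 8.82 and 39.8% ± 13.4. Over all protein-coding genes the 3' UTR share was 51.2% ± 3.49 in the IGF2BP libraries and 28.0% ± 1.14 in the METTL1 and WDR4 libraries, so it was higher in the members for both kinds of library. The intron share over all genes was 26.3% ± 4.09 and 55.6% ± 4.76.

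The share in coding sequence differed between the IGF2BP3 libraries. The bio2 libraries placed 12 of 46 (26.1%) and 16 of 44 (36.4%) member clusters in coding sequence, while the other IGF2BP3 libraries placed 4 of 42 (9.52%) and 5 of 43 (11.6%) there. Over all protein-coding genes the respective shares were 29.2% and 28.2% against 18.0% and 17.3%, in the same order. The same libraries had the shortest clusters, and the part of cluster width in this difference was not tested. In the IGF2BP2 libraries 1 of 28 and 1 of 39 member clusters were in coding sequence.

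**Figure D2:**
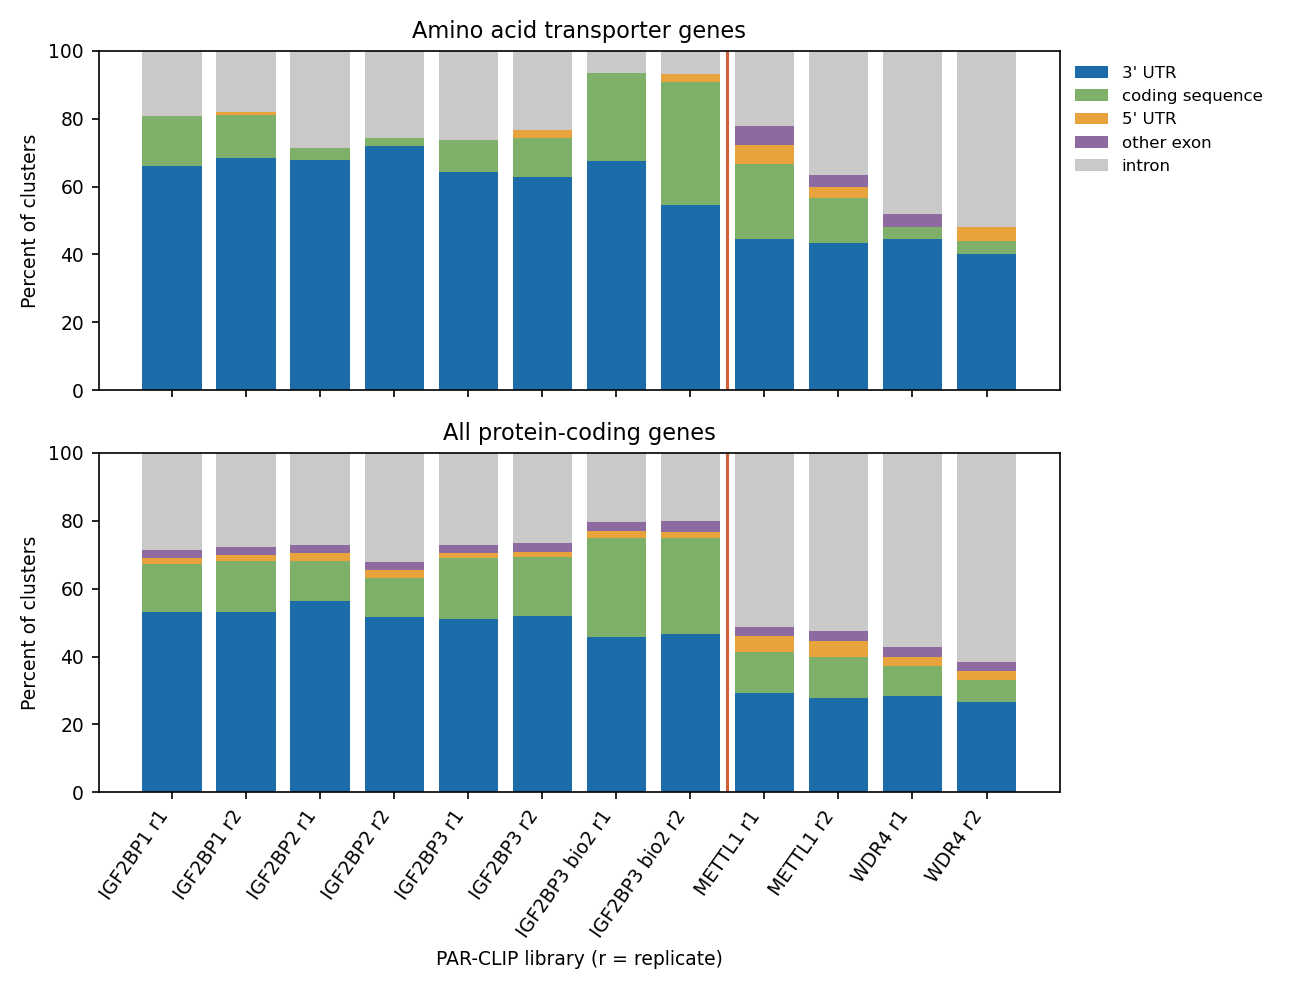
Percent of clusters in each transcript region, by library, for the 59 transporter genes (top) and all protein-coding genes (bottom). Bars are stacked to 100%, and the orange line separates the IGF2BP libraries from the METTL1 and WDR4 libraries. The 3' UTR part of the top bars lies between 54.5% and 71.8% left of the line and between 40.0% and 44.4% right of it.

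The comparison of IGF2BP with METTL1 and WDR4 libraries asked for each gene whether readers and writers differed in how often they were found on its exons. The value was the number of exonic clusters per 10000 clusters of the library, and the difference in means was tested by a two-sided exact permutation test, which takes every way of dividing the libraries into 8 and 4, with the Benjamini-Hochberg adjustment over all genes tested. Of the transporter genes, 17 had an exonic cluster in at least 3 libraries and were tested among 3620 genes. After adjustment 0 of the 17 passed in either direction, as did 0 of the 3620 genes (0.0%). The smallest p possible with these libraries is 0.00202 in the exact permutation test. Whether genes at this floor pass depends on how many tie there and how many are tested. The count of 0 therefore does not show that the groups were alike. At an unadjusted exact p under 0.05, 7 of 17 transporter genes were higher in the IGF2BP libraries, against 21.2% of all genes tested, namely SLC1A2, SLC36A4, SLC38A1, SLC38A2, SLC6A11, SLC7A2 and SLC7A5. None was higher in the METTL1 and WDR4 libraries, against 2.15% of all genes tested. For 3 of the 17 genes every IGF2BP library lay above every METTL1 and WDR4 library, against 6.35% of all genes. The mean was higher in the IGF2BP libraries for 16 of the 17, with a median difference of 1.54 clusters per 10000. Over all genes tested 80.4% were higher, with a median difference of 0.604. The filter of at least 3 libraries is more easily met by the 8 IGF2BP libraries alone than by the other 4. It therefore favours genes higher in the IGF2BP libraries, among the members and among all genes alike. A p-value here measures the spread between libraries, and the labels do not say which replicates were separate cultures. The test treats the 12 libraries as independent, though they belong to 5 proteins. With protein means, 3 against 2, the exact permutation p cannot go below 0.1.

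For some genes the direction depended on the scale, as exonic sequence held a smaller part of the METTL1 and WDR4 clusters. Per 10000 exonic clusters of the library, 13 of the 17 transporter genes and 60.4% of all genes were higher in the IGF2BP libraries, and 0 genes passed the adjustment. On that scale 4 members were higher at an unadjusted p under 0.05, namely SLC1A2, SLC36A4, SLC38A1 and SLC38A2, and SLC1A5 was lower. Of all genes tested 13.1% were higher and 7.93% lower by the same unadjusted rule.

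**Figure D3:**
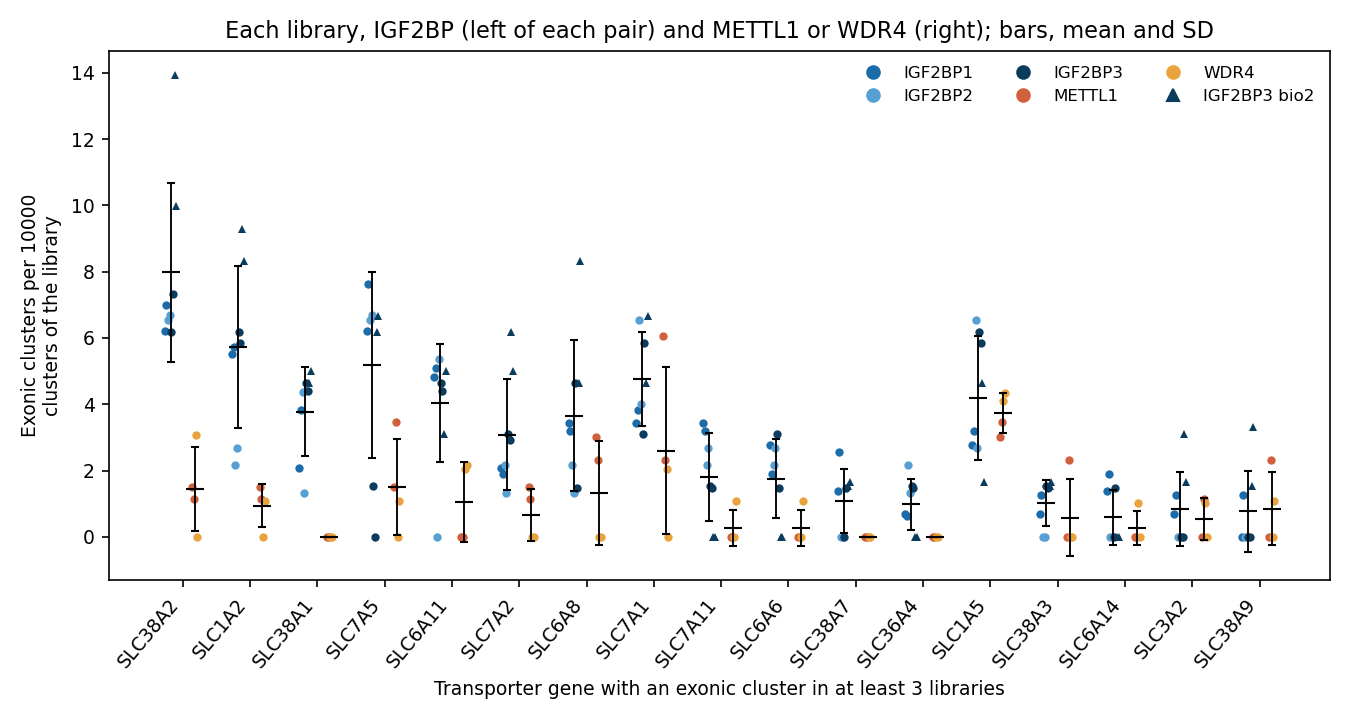
Exonic clusters per 10000 clusters of the library for the 17 transporter genes that were tested, with 1 point per library, IGF2BP libraries to the left and METTL1 and WDR4 libraries to the right of each gene. Horizontal bars are means and vertical bars SDs over 8 and 4 libraries. SLC38A2, SLC1A2 and SLC38A1 show no overlap between the groups, and SLC1A5 shows the IGF2BP points on both sides of the other 4.

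SLC38A2 and SLC38A1, sodium-coupled carriers of glutamine and other neutral amino acids, had the smallest p among the members. SLC38A2 had 3 to 11 exonic clusters in the IGF2BP libraries with a median of 5.5, and it had 1, 1, 3 and 0 in the METTL1 and WDR4 libraries. The values were 7.99 ± 2.70 (SD, n = 8) and 1.44 ± 1.27 (SD, n = 4) clusters per 10000, a difference of 6.55. SLC38A1 had 1 to 6 clusters with a median of 3 in the IGF2BP libraries and 0 in each of the other 4. Its mean was 3.78 ± 1.34 (SD, n = 8) clusters per 10000 against 0. The groups did not overlap for either gene, and each had an exact permutation p of 0.00202, below which 8 against 4 libraries cannot go. The adjusted p was 0.0530 for each, which misses the threshold of 0.05. Per 10000 exonic clusters the groups of SLC38A1 stayed apart (adjusted p = 0.0677, same exact test), while those of SLC38A2 overlapped, with 14.0 ± 4.11 and 4.85 ± 4.59 (exact permutation p = 0.00404, adjusted p = 0.0969). With 3' UTR clusters alone SLC38A1, SLC38A2 and SLC1A2 passed, each with an adjusted p of 0.0472 (same exact test). They were 3 of 16 members tested, and 116 of all 2709 genes tested passed. Without the bio2 libraries, on all exonic clusters, the adjusted p was 0.0898 for SLC38A1 and 0.0712 for SLC38A2 (same exact test).

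The clusters of these genes fell on repeated positions. Clusters of all libraries that overlapped on the same strand were merged into sites. Positions in a 3' UTR are counted from the first base after the coding sequence of the Ensembl canonical transcript, stop codon included. SLC38A1 had 6 sites, all of them with IGF2BP clusters only. A site at nt 272 of its 5910 nt 3' UTR was found in all 8 IGF2BP libraries, a site at nt 1147 in 6, and a site in its coding sequence in 7. The centre of the coding-sequence site occurs 5 times in the genome, so its reads may belong to another locus. SLC38A2 had 16 sites, with 10 in the 3' UTR and 6 in coding sequence. The site at nt 20, just after its coding sequence, was found in all 8 IGF2BP libraries and in none of the others, and the site at nt 287 in all 8 and in 1 METTL1 and 1 WDR4 library. Sites at nt 767 and nt 1372 were found in 7 and 6 IGF2BP libraries and in no other. Of the 53 member sites found in at least 3 libraries, 2 were found in all 8 IGF2BP and no METTL1 or WDR4 library, against 1.77% of such sites over all genes, and these were the SLC38A1 site at nt 272 and the SLC38A2 site at nt 20.

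SLC1A5, a sodium-dependent exchanger of glutamine and other neutral amino acids, was the transporter gene with the most clusters in the METTL1 and WDR4 libraries. It had 1 to 5 exonic clusters in the IGF2BP libraries with a median of 3.5, and 2, 3, 4 and 4 in the METTL1 and WDR4 libraries. The values were 4.19 ± 1.86 (SD, n = 8) and 3.73 ± 0.600 (SD, n = 4) clusters per 10000, and the groups overlapped throughout (exact permutation p = 0.634, adjusted p = 0.771). Per 10000 exonic clusters the order turned, with 7.43 ± 3.29 and 13.4 ± 4.00 (exact permutation p = 0.0242, adjusted p = 0.182). Of its 39 exonic clusters 34 lay in the 3' UTR and 4 in coding sequence.

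SLC1A5 was also the only transporter gene with a reproducible WDR4 site, taken as a site present in at least 2 libraries of the same protein. For this count only clusters of that protein were merged. A site merged over all libraries can hold clusters of 1 protein that do not overlap each other. WDR4 had 3 such sites in member genes, all in SLC1A5. METTL1 had 4, in SLC1A5, SLC6A8 and SLC7A5, so 3 of 59 transporter genes (5.08%) had a reproducible METTL1 site and 1 (1.69%) a reproducible WDR4 site, against 2.84% and 3.22% of all genes. Reproducible sites of IGF2BP1 were found in 17 members (28.8%, against 15.6% of all genes), of IGF2BP2 in 10 (16.9%, against 5.78%) and of IGF2BP3 in 16 (27.1%, against 13.7%). Since IGF2BP3 had 4 libraries, its count is not comparable with those of the other proteins. Beside the genes described below, SLC38A7 had reproducible sites of IGF2BP1 and IGF2BP3, SLC6A14 and SLC6A4 of IGF2BP1, and SLC7A6 of IGF2BP3.

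Of 138 merged exonic sites in transporter genes, 100 lay in 3' UTRs and 33 in coding sequence, and 54 were found in 1 library alone. Only IGF2BP libraries had 99 of the sites, only METTL1 or WDR4 libraries had 14, and both had 25 (18.1%, against 20.7% of the sites of all genes). All 5 proteins were found at 6 of the 53 sites present in at least 3 libraries, against 13.4% of such sites over all genes. These were 2 sites in SLC1A5, 2 in SLC7A1, 1 in SLC38A2 and 1 in SLC7A5. The central 30 nt of those in SLC38A2, SLC7A1 and SLC7A5 are shown because readers and writers were both found at these sites. A site is a chain of overlapping clusters, so not every cluster reaches its central 30 nt. In the SLC7A5 site at nt 1019 the WDR4 cluster had its midpoint at nt 1056, outside the letters shown. In the SLC7A1 site at nt 195 the cluster of METTL1 replicate 1 had its midpoint at nt 261, also outside. Capitals mark the letters CATA, CATC or CATT, the DNA form of a short element known to be preferred by IGF2BP proteins, searched on the transcript strand only, and the coordinates are of hg38.
SLC38A2 nt 287, chr12:46360813-46360842, minus strand: acaaactcttaacttttatcaagccacatg
SLC7A1 nt 195, chr13:29514274-29514303, minus strand: gttctccgggccctggtcacctccagacag
SLC7A1 nt 2968, chr13:29511501-29511530, minus strand: ctacacaccccccactctacttatCATCcc
SLC7A5 nt 1019, chr16:87831940-87831969, minus strand: cccggcctaggcacctccccgctctccctg

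Sites of the same rank that were found mostly or only in IGF2BP libraries are set beside them, since they carry the contrast described above. They are the SLC38A1 site found in 8 IGF2BP libraries alone, and sites of SLC1A2, SLC6A8 and SLC6A11 found in 7 or 8 IGF2BP libraries and 1 METTL1 or WDR4 library.
SLC38A1 nt 272, chr12:46188687-46188716, minus strand: tttcacaatCATTttttaccCATCtaactc
SLC1A2 nt 4517, chr11:35256366-35256395, minus strand: tttctactccacctcttcctttcctatcat
SLC1A2 nt 6568, chr11:35254315-35254344, minus strand: acaaatcaccttaactccctccctttctct
SLC6A8 nt 795, chrX:153695992-153696021, plus strand: aaacCATCctctccttaccactccCATCcc
SLC6A11 nt 844, chr3:10939229-10939258, plus strand: tttccctaaaactctaatttCATCtCATCt

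The element was in the central 30 nt of 59 of the 138 member sites (42.8%) and of 41.5% of the 16401 sites of all genes. Among member sites with IGF2BP clusters only, 46 of 99 (46.5%) held it, among those with both kinds 8 of 25 (32.0%), and among those with METTL1 or WDR4 clusters only 5 of 14 (35.7%). Over all genes the respective shares were 50.5%, 35.2% and 20.1%. By protein, 34 of 64 member sites with IGF2BP3 clusters held the element (53.1%), against 41 of 102 with IGF2BP1 clusters (40.2%) and 9 of 32 with IGF2BP2 clusters (28.1%). Over all genes the order was the same, with 59.6%, 44.5% and 34.8%. Sites are shared between proteins, so these shares are not independent.

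**Figure D4:**
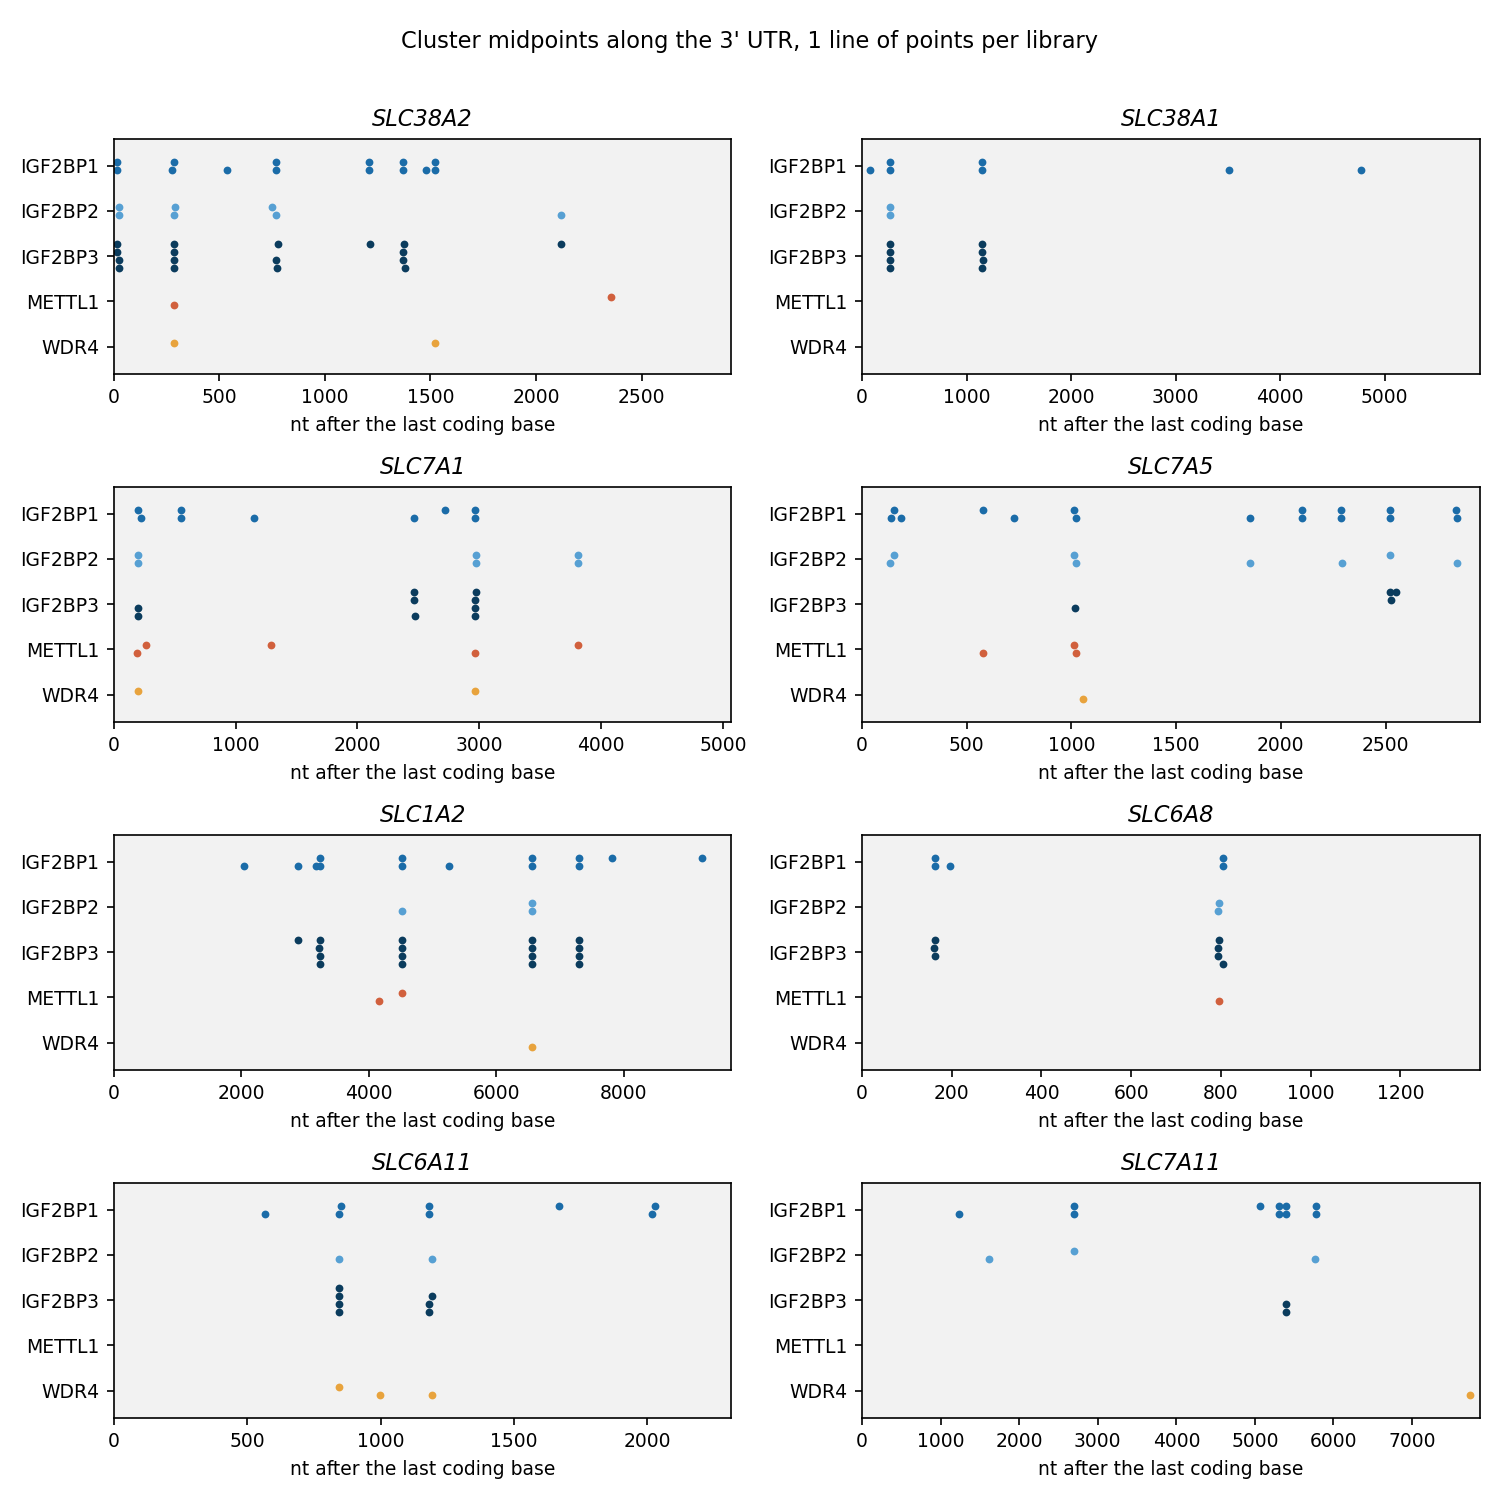
Midpoints of clusters along the 3' UTRs of 8 transporter genes, in nt after the last coding base, with the grey field spanning the whole 3' UTR of the canonical transcript. Each row of points is 1 library, grouped and coloured by protein. The columns of points at nt 195 and nt 2968 of SLC7A1 run through all 5 proteins, while those in SLC38A1 stop at IGF2BP3.

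SLC7A5, the light chain that exchanges large neutral amino acids such as leucine, had 17 sites, the largest number among the members. It had 9 and 12 exonic clusters in the IGF2BP1 libraries, 3 and 5 in the IGF2BP2 libraries, 1 and 0 in the IGF2BP3 libraries, and 4 and 4 in the bio2 libraries. METTL1 had 1 and 3, and WDR4 had 0 and 1. The IGF2BP3 libraries without the bio2 label were the lowest of the IGF2BP group, which spanned the range of the other group. The values were 5.19 ± 2.79 (SD, n = 8) and 1.52 ± 1.45 (SD, n = 4) clusters per 10000 (exact permutation p = 0.0485, adjusted p = 0.207). Per protein the means were 6.92 for IGF2BP1, 6.62 for IGF2BP2 and 3.60 for IGF2BP3, and differences between these proteins were not tested. The site at nt 1019 of its 2950 nt 3' UTR was found with all 5 proteins, in 5 IGF2BP and 3 METTL1 and WDR4 libraries. The site at nt 145 was found in both libraries of IGF2BP1 and of IGF2BP2 and in no other. In the bio2 libraries 5 of its 8 exonic clusters lay in coding sequence.

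SLC7A11, the cystine and glutamate exchanger, had per-protein means of 3.32 clusters per 10000 with IGF2BP1, 2.43 with IGF2BP2 and 0.753 with IGF2BP3, which were not tested against each other. It had 5 and 5 exonic clusters with IGF2BP1, 1 and 2 with IGF2BP2, 1 and 1 with IGF2BP3, and 0 in both bio2 libraries. METTL1 and WDR4 had 0, 0, 0 and 1. The groups overlapped, and the values were 1.81 ± 1.32 (SD, n = 8) and 0.272 ± 0.543 (SD, n = 4) clusters per 10000 (exact permutation p = 0.0667, adjusted p = 0.249). All 16 clusters lay in the 3' UTR of 7862 nt, between nt 1230 and nt 7735. The most frequent site, at nt 5395, was found in 4 libraries.

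SLC3A2, the heavy chain that SLC7A5 and SLC7A11 pair with, had few clusters. It had 1 and 2 with IGF2BP1, 2 and 1 in the bio2 libraries, and 0 in the other 4 IGF2BP libraries. METTL1 and WDR4 had 0, 1, 1 and 0. The values of 0.841 ± 1.12 (SD, n = 8) and 0.545 ± 0.632 (SD, n = 4) overlapped (exact permutation p = 0.693, adjusted p = 0.798), and without the bio2 libraries the mean was lower in the IGF2BP libraries by 0.218. A site at nt 81 of its 170 nt 3' UTR has a centre that occurs 13 times in the genome.

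Among the cationic amino acid carriers, SLC7A1 was found with all 5 proteins. It had 2 to 6 exonic clusters in the IGF2BP libraries with a median of 3.5, and 4, 2, 2 and 0 in the METTL1 and WDR4 libraries. METTL1 replicate 1 lay inside the IGF2BP range and WDR4 replicate 2 had no cluster. The values were 4.76 ± 1.41 (SD, n = 8) and 2.60 ± 2.52 (SD, n = 4) clusters per 10000 (exact permutation p = 0.0848, adjusted p = 0.278). The difference of 2.16 was 3.31 without METTL1 replicate 1 and 1.29 without WDR4 replicate 2. Per 10000 exonic clusters they were 8.44 ± 2.47 and 8.39 ± 7.83. Its 3' UTR of 5069 nt held the site at nt 2968 in all 8 IGF2BP libraries, 1 METTL1 and 1 WDR4 library, and the site at nt 195, whose centre occurs 2 times in the genome, in 6 IGF2BP, 2 METTL1 and 1 WDR4 library. The METTL1 clusters of the site at nt 195 had midpoints at nt 261 and nt 194. They did not overlap each other, so SLC7A1 had no reproducible METTL1 site. A site at nt 2466 was found in 4 IGF2BP libraries, of IGF2BP1 and IGF2BP3.

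SLC7A2, another arginine carrier, which is prominent in liver, had 1 to 4 exonic clusters in the IGF2BP libraries with a median of 2.5. It had 1 and 1 with METTL1 and 0 and 0 with WDR4. The values of 3.09 ± 1.67 (SD, n = 8) and 0.667 ± 0.784 (SD, n = 4) overlapped at the edge (exact permutation p = 0.0242, adjusted p = 0.163). One of its sites, whose centre occurs 2 times in the genome, was found in 7 IGF2BP libraries and 1 METTL1 library. Of its exonic clusters 61.9% have a centre that occurs once, against 85.3% of those of all members. Its introns gave the opposite order. They held 0 clusters in all 8 IGF2BP libraries and 0, 1, 3 and 4 in the METTL1 and WDR4 libraries (0 against 2.14 ± 1.94 clusters per 10000, exact permutation p = 0.0182, adjusted p = 0.0860). Of all genes tested in introns, 23.4% were higher in the METTL1 and WDR4 libraries at an unadjusted exact p under 0.05.

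SLC1A2, a glutamate carrier known from astrocytes and also present in perivenous hepatocytes, had 1 to 9 exonic clusters in the IGF2BP libraries with a median of 4.5, and 1, 1, 0 and 1 in the METTL1 and WDR4 libraries. The values were 5.72 ± 2.44 (SD, n = 8) and 0.939 ± 0.653 (SD, n = 4) clusters per 10000. Every IGF2BP library lay above the other 4, with the IGF2BP2 libraries the lowest at 2.18 and 2.68. The difference of 4.78 had an exact permutation p of 0.00808 and an adjusted p of 0.113. The groups overlapped per 10000 exonic clusters, with 9.97 ± 3.85 and 3.24 ± 2.22 (exact permutation p = 0.0182, adjusted p = 0.165). Of its clusters, 40 lay in the 3' UTR, 37 of them in that of the canonical transcript, and 2 in coding sequence. Of its exonic clusters 88.1% have a centre that occurs once in the genome, and the most repeated centre occurs 73701 times. Clusters recurred at nt 3228, nt 4517, nt 6568 and nt 7305 of a 3' UTR of 9692 nt, all with centres that occur once. The first and the last of these were found in all 4 IGF2BP3 and both IGF2BP1 libraries and in no other.

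The SLC6 members that were bound most often carry creatine, GABA and taurine. SLC6A8, the creatine transporter, had 1 to 5 exonic clusters in the IGF2BP libraries with a median of 3, 2 and 2 with METTL1, and 0 and 0 with WDR4. The values of 3.65 ± 2.28 (SD, n = 8) and 1.33 ± 1.57 (SD, n = 4) overlapped (exact permutation p = 0.0970, adjusted p = 0.281). Only 46.4% of its exonic clusters have a centre that occurs once in the genome, and the centres of both of its most frequent sites, at nt 163 and nt 795, occur 4 times, so part of its reads may belong to copies of the gene. A site in its coding sequence with a unique centre was found in both METTL1 libraries and in 1 IGF2BP1 library.

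SLC6A11, a GABA transporter, had 7 and 8 exonic clusters with IGF2BP1, 0 and 4 with IGF2BP2, 3 and 3 with IGF2BP3, and 2 and 3 in the bio2 libraries. METTL1 had none and WDR4 had 2 and 2. IGF2BP2 replicate 1 was the 1 IGF2BP library without a cluster, and the other 7 lay above the METTL1 and WDR4 libraries. The values were 4.05 ± 1.78 (SD, n = 8) and 1.06 ± 1.22 (SD, n = 4) clusters per 10000 (exact permutation p = 0.0141, adjusted p = 0.144). Per 10000 exonic clusters they were 7.19 ± 3.29 and 4.13 ± 4.83 (exact permutation p = 0.261, adjusted p = 0.496). SLC6A11 also had the most intronic clusters of any member, 36 in 11 libraries, with 1 to 7 in each IGF2BP library and 2, 1, 4 and 0 in the others. Of its 34 exonic clusters, 20 lay in the 3' UTR of the canonical transcript and the others in 3' UTRs annotated for shorter transcripts. Among the 34, 85.3% have a centre that occurs once in the genome, and the most repeated centre occurs 22457 times.

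SLC6A6, the taurine transporter, had 4 and 3 clusters with IGF2BP1, 1 and 2 with IGF2BP2, 2 and 1 with IGF2BP3, and 0 in both bio2 libraries. METTL1 and WDR4 had 0, 0, 0 and 1. The values were 1.76 ± 1.20 (SD, n = 8) and 0.272 ± 0.543 (SD, n = 4), and the groups overlapped (exact permutation p = 0.0586, adjusted p = 0.228). Its most frequent site, at nt 1888 of 4345 nt, was found in both libraries of IGF2BP1 and IGF2BP2 and both IGF2BP3 libraries without the bio2 label. SLC36A4, a carrier of proline and tryptophan, showed the same set of libraries. It had exactly 1 cluster, at nt 1556 of 4366 nt, in each of the 6 and in no other library. Its values were 0.982 ± 0.780 (SD, n = 8) and 0 (exact permutation p = 0.0444, adjusted p = 0.207).

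SLC38A3, a glutamine carrier of hepatocytes, was bound mainly in coding sequence. Of its 9 exonic clusters 7 lay in coding sequence and 2 in the 3' UTR. It had 1 or 2 clusters in both IGF2BP1 and all 4 IGF2BP3 libraries, 0 with IGF2BP2, 0 and 2 with METTL1 and 0 with WDR4. A coding-sequence site was found in those 6 IGF2BP libraries. The values of 1.02 ± 0.699 (SD, n = 8) and 0.578 ± 1.16 (SD, n = 4) overlapped (exact permutation p = 0.414, adjusted p = 0.580). SLC38A9, the lysosomal arginine sensor that signals to mTORC1, had 0 and 2 clusters with IGF2BP1, 1 and 2 in the bio2 libraries, 0 and 2 with METTL1, 0 and 1 with WDR4, and 0 in the other 4. The values of 0.769 ± 1.22 (SD, n = 8) and 0.850 ± 1.10 (SD, n = 4) overlapped (exact permutation p = 0.929, adjusted p = 0.964).

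**Figure D5:**
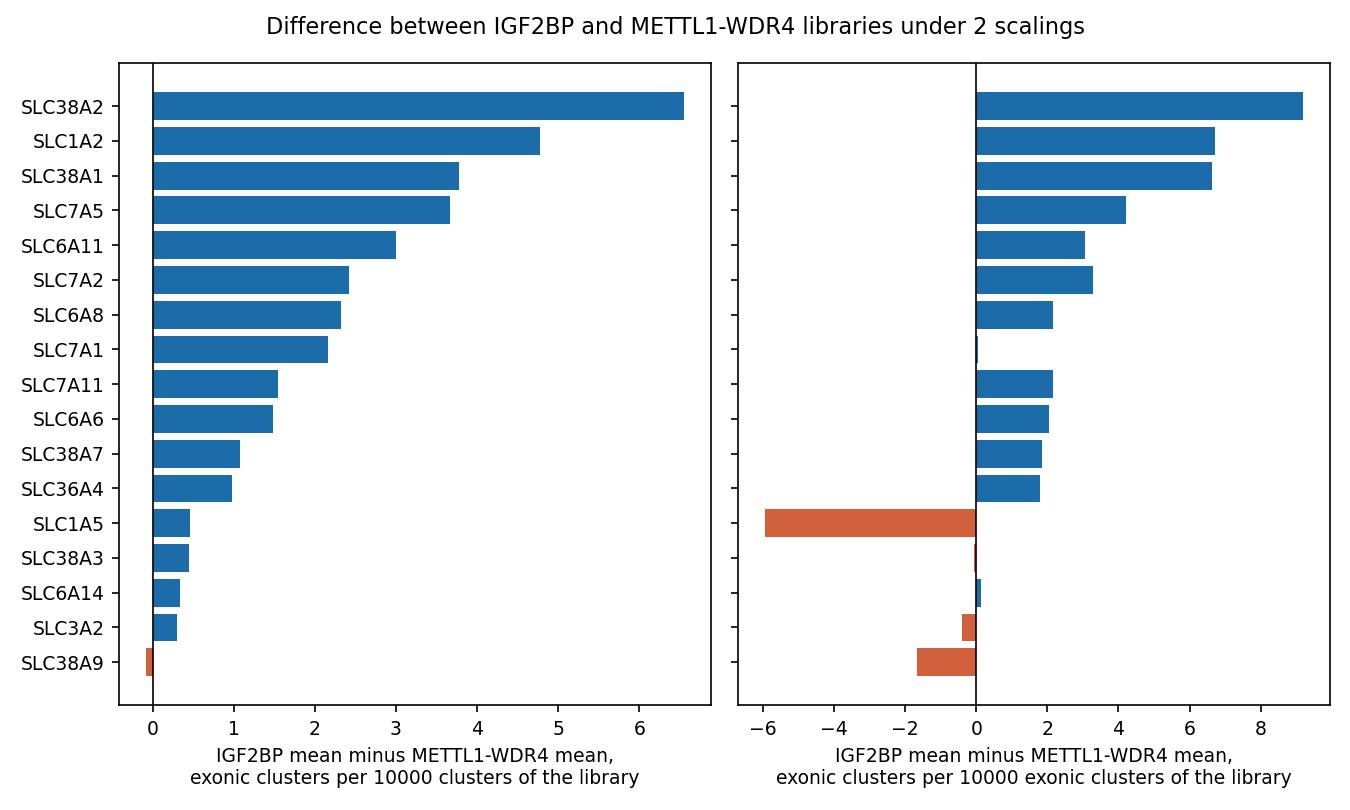
Difference between the mean of the 8 IGF2BP and the 4 METTL1 and WDR4 libraries for the 17 tested transporter genes, per 10000 clusters of the library (left) and per 10000 exonic clusters of the library (right), with genes in the same order. Blue bars are higher in the IGF2BP libraries and orange bars lower. SLC38A2, SLC1A2 and SLC38A1 keep the longest bars on both scales, and SLC1A5 turns from 0.457 to -5.94.

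Levels were set against each other only per length of exonic sequence, as IGF2BP clusters per 10000 per kilobase. SLC38A2 came first with 1.63 ± 0.549 (SD, n = 8), followed by SLC1A5 with 1.26 ± 0.559, SLC7A5 with 1.13 ± 0.606 and SLC6A8 with 0.876 ± 0.546. Neighbours in this order differed by less than their SDs. SLC7A1 and SLC6A11 followed with 0.642 ± 0.190 and 0.635 ± 0.278. SLC38A1, SLC7A2 and SLC1A2 lay together at 0.393, 0.391 and 0.382, and SLC36A4 was the lowest of the 14 genes at 0.156. In the METTL1 and WDR4 libraries SLC1A5 came first with a mean of 1.12, and the next was SLC7A1 with 0.351.

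Introns were tested in the same way for genes with an intronic cluster in at least 3 libraries, which left 11 transporter genes among 2336. No transporter gene was higher in the IGF2BP libraries after adjustment, against 0.642% of all genes, and 1 of 11 was higher in the METTL1 and WDR4 libraries, against 4.15%. The gene was SLC38A10, a carrier of glutamine and other amino acids. It had no intronic cluster in any IGF2BP library and 1, 1, 2 and 1 in the METTL1 and WDR4 libraries, which is 0 against 1.45 ± 0.440 (SD, n = 4) clusters per 10000 (exact permutation p = 0.00202, adjusted p = 0.0421). The call rests on 5 clusters and was lost when any 1 library other than METTL1 replicate 1 was left out (adjusted p from 0.0533 to 0.0719), without the bio2 libraries (0.0732) and with unscaled numbers (0.0597). SLC7A7, a light chain of cationic amino acid exchange, had 1 intronic cluster in 1 IGF2BP library and 0, 1, 1 and 1 in the others (exact permutation p = 0.0182, adjusted p = 0.0860). At an unadjusted exact p under 0.05, 3 of 11 members were higher in the METTL1 and WDR4 libraries, against 23.4% of all genes. SLC6A6 had 1 intronic cluster in 7 of 8 IGF2BP and in all 4 METTL1 and WDR4 libraries, and the means were 1.18 and 1.19. SLC7A11 had 0 to 2 in the IGF2BP libraries and 0, 1, 1 and 1 in the others, with means of 1.32 and 0.817.

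Genes that act with the transporters were read from lists of the same kind. Of 27 genes of mTORC1 itself and of amino acid sensing upstream of it, 12 had exonic clusters and 9 were tested. Of the 9, 8 were higher and 1 lower in the IGF2BP libraries, with a median difference of 0.533 and 3 higher at an unadjusted p under 0.05. FNIP1, a partner of folliculin, was found in all 12 libraries. Of 18 genes of the amino acid response 11 had exonic clusters and 5 were tested, with 4 higher, a median of 0.329 and 0 at an unadjusted p under 0.05. Among them ATF4, the transcription factor of this response, had 1 cluster in each of the 12 libraries, with 1.38 ± 0.510 (SD, n = 8) and 1.19 ± 0.218 (SD, n = 4) clusters per 10000. Of 20 cytosolic aminoacyl-tRNA synthetases 6 had exonic clusters and 4 were tested, with 3 higher, a median of 0.471 and 1 higher at an unadjusted p under 0.05. Of 19 other amino acid carriers, mainly mitochondrial, vesicular and lysosomal, 9 had exonic clusters and 6 were tested, with 3 higher, 3 lower, a median of 0.0477 and 1 lower at an unadjusted p under 0.05. No gene of these lists passed after adjustment. Over all genes tested 80.4% were higher, the median was 0.604, and 21.2% were higher and 2.15% lower at an unadjusted p under 0.05.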

How the data were processed

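The authors' methods state that reads were quality filtered, clipped, collapsed with the FASTX toolkit and kept above a minimum length, mapped with bowtie, which allowed reads with several genomic matches, and turned into clusters with PARalyzer. The submitters' processing notes name Bowtie and hg38, and versions and PARalyzer settings are not given in the sources used here. The deposited files hold another unit than a count: each line is the interval of 1 cluster in 1 library, with no score or read number. Libraries were not pooled.

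Starts were read as counted from 1, since RNase T1 cuts after G and a G stood just before 74.5% to 94.7% of the intervals in each library. Each cluster was assigned by its midpoint, on its strand, to protein-coding genes of GENCODE release 44, in the order coding sequence, 3' UTR, 5' UTR, other exon, intron. A cluster in more than 1 gene counted in each, and no member cluster lay in another protein-coding gene on its strand. Values are clusters per 10000 library clusters. Precision is set by the cluster number per library, 4581 to 15701. The groups, from the labels, were 8 IGF2BP and 4 METTL1 or WDR4 libraries, compared per gene by a two-sided exact permutation test of the mean difference (smallest p 0.00202), with Benjamini-Hochberg adjustment over all genes with a cluster in at least 3 libraries and a threshold of 0.05. Sites were clusters of all libraries that overlapped by at least 1 nt, or of 1 protein for reproducible sites. Copy numbers are how often the central 20 nt occur in hg38.

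The members, the lists and the rule for naming genes were chosen with earlier results of these data known. Values per library were given for members with exonic clusters in at least 6 libraries, members with reproducible sites for both kinds of protein, members past the threshold, and 10 further listed transporters, which overlap with these. The sequences are the central 30 nt of the exonic sites found in the most libraries, of which some are not reported here. Alternatives left out libraries, changed the scale, region, filter or cluster set, took 3 against 2 proteins, or permuted within replicate number. A filter of at least 6 libraries was added after the main adjusted p-values had been seen. Whether replicate numbers pair the libraries was checked from 15 correlations of replicate differences across genes. They ranged from -0.0611 to 0.0633, and no pairing was assumed. The test was checked on simulated counts drawn independently for each library. That check does not cover dependence between libraries of the same protein. Work was done in Python 3.11.15 with numpy 2.4.6, pandas 2.3.3 and pysam 0.24.0.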

Additional observations from a re-analysis of the deposited data

Results flagged for a closer look

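In 7 of 40 groups of libraries examined, the highest or lowest library lay far from the rest by Dixon's criterion at the 95% level. The criterion is made for continuous values, so it gives no chance rate for counts this small. A METTL1 and WDR4 group with clusters in 1 library alone always meets it, and a group with none never does. Many of the flagged values rest on 1 or 2 clusters. In METTL1 replicate 2, SLC38A3 had 2.31 exonic clusters per 10000 and the other METTL1 and WDR4 libraries had 0. In WDR4 replicate 2, SLC6A6 and SLC7A11 each had 1.09, from 1 cluster, and the other 3 had 0. In IGF2BP2 replicate 1, the library with the fewest clusters, SLC6A11 had 0.0 and the next IGF2BP library had 3.10. In replicate 2 of the bio2 libraries SLC6A8 had 8.32, with the next IGF2BP library at 4.65, and SLC38A9 had 3.33, with the next at 1.55. METTL1 replicate 2 placed 0.347% of its clusters in transporter genes, against at most 0.277% in the other METTL1 and WDR4 libraries.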

How the results depend on the processing

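Of 386 recomputed values of single transporter genes 15 turned in direction. Leaving out 1 library in turn gave -0.447 to 0.407 for SLC38A9 and -0.0269 to 0.499 for SLC3A2, and without the bio2 libraries SLC3A2 was at -0.218. Per 10000 exonic clusters, SLC1A5 was at -5.94, SLC38A3 at -0.0592 and SLC3A2 at -0.402. With clusters of at least the median width, SLC1A5 was at -0.0461, SLC6A8 at -0.0199 and SLC38A9 at 0.192, and with single-copy clusters SLC3A2 was at -0.0639. Adjusted exonic calls were 116 of 2709 genes and 3 of 16 members with 3' UTR clusters alone. They were 134 genes and 2 members with clusters in at least 5 libraries. With at least 6, a filter chosen after seeing the data, they were 180 and 2. They were 0 otherwise, leaving out libraries included. Fewer genes were tested under these settings, and SLC38A1 and SLC38A2 passed in each. There were 4 METTL1 and WDR4 libraries, so no gene can meet a filter of 5 or 6 libraries without IGF2BP clusters. SLC38A1 met both filters through IGF2BP libraries alone, so its passing there is not independent of the filter. Members with an unadjusted p under 0.05 numbered 0 with protein means (3 against 2, which cannot go below 0.1). With unscaled numbers they were 4 of 17, against 12.3% of all genes higher and 1.30% lower. They numbered 1 with presence alone, 4 with wide clusters, and 4 to 8 leaving out libraries, with 4 when either WDR4 library was left out. Where no share over all genes is given, a count does not set the members apart from other genes. Intronic calls after adjustment were 112 genes and 1 member in the main setting. They were 0 and 0 without the bio2 libraries, with protein means, unscaled numbers, presence, at least 2 libraries, wide or single-copy clusters, and 56 and 0 with at least 5 libraries. Leaving out libraries gave 0 to 261 genes and 0 to 3 members, with 261 and 3 without METTL1 replicate 1 and 0 without any other. Unadjusted intronic members numbered 5 without the bio2 libraries, 0 with protein means or at least 5 libraries, 1 with wide or single-copy clusters, and 1 to 4 leaving out libraries. Among wide clusters, reproducible sites were left in 9 members for IGF2BP1, 4 for IGF2BP2 and 1 for METTL1. The 3' UTR share of METTL1 and WDR4 member clusters was 48.0% with single-copy and 30.2% with wide clusters, and 42.6% to 44.1% leaving out libraries, while the IGF2BP share was 64.5% to 66.9%. Causes were not tested. Cluster counts per gene of 1 to 12 limit what can be told apart.

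With the replicate block, where libraries were permuted only within replicate number, intronic calls after adjustment were 0 genes and 0 members, exonic calls were 0, and 5 members had an unadjusted p under 0.05.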

Other observations

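A few clusters lay beside the transporter transcripts. On the opposite strand of member genes there were 16 clusters, of which 8 lay in SLC7A7 in 7 libraries and 2 in SLC38A4, the hepatocyte carrier that had none on its own strand. Within 5000 nt downstream of the annotated end, on the same strand, there were 12 clusters, of which 8 in 6 libraries followed SLC1A5.

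The IGF2BP3 libraries with and without the bio2 label gave different numbers of exonic clusters for the same transporter, with 2 libraries on each side, and the differences were not tested. SLC7A5 had 8 with and 1 without the label, SLC38A2 15 and 9, and SLC6A8 8 and 4. SLC1A5 had 4 and 8, and SLC6A6, SLC7A11 and SLC36A4 had 0 with the label and 3, 2 and 2 without it. SLC38A1 had 6 and 6.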
